A study of Ambystoma mexicanum with 8 samples.

Results

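The genes described here are the myogenic regulators PAX7, MYF5 and MYOG and the muscle lineage genes CDH15, DES and MSTN, in single limb cells of the axolotl, Ambystoma mexicanum, sorted at a DNA content of 4 C. They were chosen by symbol: an identifier was a member if the last symbol in its name was PAX7, MYF5, MYOD1, MYOG, CDH15, DES or MSTN. The rule found 7 identifiers for 6 of the 7 symbols, among 60956 identifiers in all. CDH15 has 2 identifiers, and MYOD1 was not analysed here. A cell was said to carry a member gene if it held at least 1 UMI of it, a UMI being a molecular tag that counts copies of one RNA molecule once. In all, 94 of 33759 kept cells carried 2 or more of the 6 genes, and 70 of the 94 came from Contra libraries and 24 from Intact libraries.

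PAX7 is a paired-box factor that marks satellite cells, the resident stem cells of skeletal muscle. When such cells are activated they turn on the basic helix-loop-helix factors MYF5 and MYOD1, and MYOG then accompanies exit from the cell cycle, fusion and the start of the contractile program. In axolotl limbs, PAX7-positive satellite cells are known to supply new muscle during regeneration. Unless stated otherwise, the gene roles given below are known from mammals.

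The series compares limb cells in 8 droplet libraries, 4 named Contra (numbers 1, 2, 3 and 5) and 4 named Intact (numbers 1, 3, 4 and 5), all of wild-type animals. The design text speaks of systemically activated and of homeostatic limbs, sampled 14 days post-amputation; Contra was taken for the systemically activated and Intact for the homeostatic limbs, although the labels do not spell Contra out. Cells of both groups were dissociated enzymatically, stained for DNA and for viability, and sorted for the 4 C fraction. The labels do not say whether libraries came from separate animals, so that p-values below rest on the spread between libraries, which may be technical.

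Kept cells numbered 4653, 6107, 7329 and 4760 in Contra 1, 2, 3 and 5, and 1596, 4140, 3194 and 1980 in Intact 1, 3, 4 and 5. Total UMIs ranged from 39628615 to 99705878 in Contra and from 13287968 to 68927712 in Intact libraries. The median per cell ranged from 4860.5 to 12218 UMIs in Contra and from 4137.5 to 15398.5 UMIs in Intact libraries. Cell barcodes found in more than 1 library numbered 133, and 1 of the 94 cells has such a barcode.

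All members were sparse. Levels are given as CPM, UMIs of a gene per 1000000 UMIs of all kept cells of a library, and since these are sums over mixed cells, fewer cells of a type and less RNA per cell cannot be told apart in them. PAX7 (AMEX60DD052322) had 355 UMIs in 178 cells. Its level was 0.552, 0.591, 1.12 and 2.14 CPM in Contra 1, 2, 3 and 5, against 0.783, 0.595, 0.836 and 0.527 CPM in Intact 1, 3, 4 and 5. Contra 5 lay highest and Intact 5 lowest, and the groups overlapped.

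MYF5 (AMEX60DD007644), the earliest of the myogenic helix-loop-helix factors in the embryo, had 255 UMIs in 82 cells. Its level was 0.138, 0.236, 1.03 and 0.707 CPM in Contra 1, 2, 3 and 5, against 0.245, 1.02, 0.646 and 0.602 CPM in Intact 1, 3, 4 and 5. The library of number 3 was the highest of each group, and Contra 1 was the lowest of all 8. MYOG (AMEX60DD008545), the factor of terminal differentiation, had 204 UMIs in 73 cells. It reached 0.0863, 0.0443, 1.49 and 0.429 CPM in Contra 1, 2, 3 and 5, against 0, 0.392, 0.114 and 0 CPM in Intact 1, 3, 4 and 5. Contra 3 alone held 149 of the 204 MYOG UMIs; a count of 0 allows up to 0.147 CPM in Intact 1 and 0.226 CPM in Intact 5, at a floor of 3 counts per library.

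CDH15 encodes M-cadherin, an adhesion protein of satellite cells and myoblasts. Its identifier AMEX60DD017092 had 662 UMIs in 273 cells, at 0.535, 0.842, 3.04 and 2.73 CPM in Contra 1, 2, 3 and 5, against 1.08, 1.57, 0.646 and 1.20 CPM in Intact 1, 3, 4 and 5. The second identifier, AMEX60DD017091, behaved otherwise: its 148 UMIs lay in 148 cells, 1 in each, and only 1 of them lay in the cluster that held most of the other members' UMIs. Its level was 0.380, 0.458, 0.401 and 0.379 CPM in Contra 1, 2, 3 and 5, against 0, 0.377, 0.380 and 0.301 CPM in Intact 1, 3, 4 and 5. In absolute CPM this spread was narrower than that of AMEX60DD017092 in both groups. Beside the mean it was wider in Intact libraries, with an SD of 0.180 on a mean of 0.265 CPM, against 0.380 on 1.12 CPM.

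DES (AMEX60DD056342) encodes desmin, the intermediate filament of muscle cells, and had 185 UMIs in 102 cells. It reached 0.224, 0.148, 1.06 and 0.328 CPM in Contra 1, 2, 3 and 5, against 0, 0.537, 0.228 and 0 CPM in Intact 1, 3, 4 and 5. MSTN (AMEX60DD055189) encodes myostatin, a secreted inhibitor of muscle growth, and had 78 UMIs in 48 cells. MSTN lay between 0.207 and 0.252 CPM in the 4 Contra libraries, against 0, 0.276, 0 and 0 CPM in Intact 1, 3, 4 and 5. The highest library was Intact 3, so that the groups overlapped here too. At a floor of 3 counts, a count of 0 allows up to 0.147, 0.114 and 0.226 CPM in Intact 1, 4 and 5. For Intact 5 this reaches the Contra values.

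**Figure D1:**
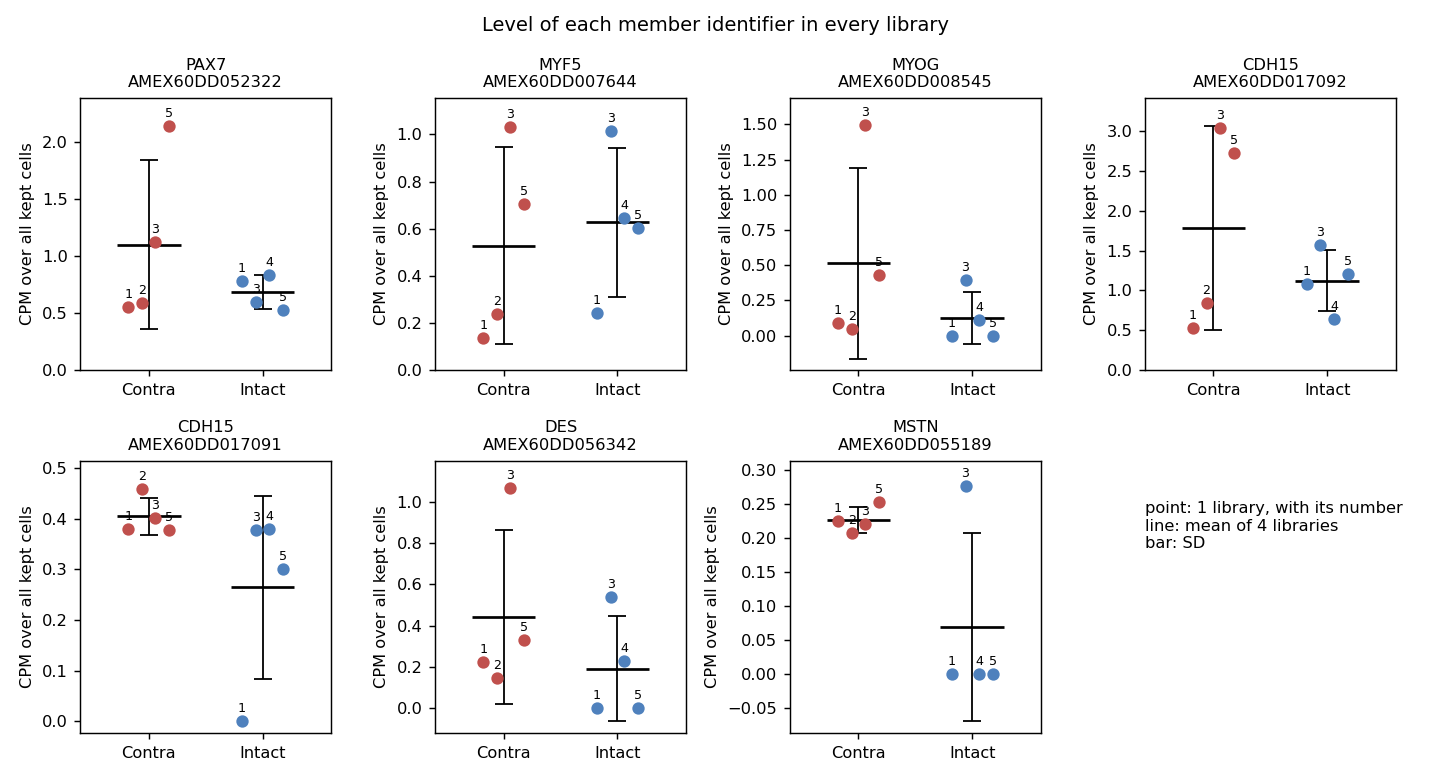
Level of each of the 7 member identifiers in CPM (vertical axes, linear) in the 4 Contra and the 4 Intact libraries. Each point is 1 library with its number, the line is the mean and the bar the SD of 4 libraries. The ranges of the groups overlap in every panel, and Contra 3 is the highest library for MYF5, MYOG, DES and the first CDH15 identifier.

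No member differed between Contra and Intact beyond the spread between libraries. PAX7 averaged 1.10 ± 0.742 CPM in Contra and 0.685 ± 0.148 CPM in Intact libraries (SD, n = 4 each), with a log2 fold change of 0.63 (SE 0.516) and an adjusted p of 0.618 in edgeR's quasi-likelihood test with Benjamini-Hochberg adjustment. MYF5 averaged 0.529 ± 0.418 CPM in Contra and 0.627 ± 0.315 CPM in Intact libraries (edgeR adjusted p = 0.877). The log2 fold changes of CDH15 AMEX60DD017092, CDH15 AMEX60DD017091, DES and MSTN were 0.64, 0.47, 0.79 and 0.82, with edgeR adjusted p-values of 0.668, 0.654, 0.721 and 0.645. MYOG averaged 0.513 ± 0.676 CPM in Contra and 0.126 ± 0.185 CPM in Intact libraries; it did not pass the filter on low counts, and without that filter its log2 fold change was 1.55 (SE 1.10, edgeR adjusted p = 0.657). With SEs of this size, small differences were not detectable at these counts.

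Of all 37378 genes in that test, 0 or 0% had an adjusted p under 0.05, and the same held for the 7 lists of muscle and cell cycle genes described below. At an unadjusted p under 0.05 there were 2803 genes, and DESeq2 called 13. Without Intact 3, edgeR called 5673 of 35959 tested genes, or 15.8%, with 3555 higher and 2118 lower in Contra. With any other single library left out, edgeR called 0 genes. The list counts that follow come from the setting without Intact 3 alone and are to be read beside its shares. PAX7, MYF5 and both CDH15 identifiers were tested and not among the called genes. MYOG, DES and MSTN did not pass the filter there. In that setting 6 of 18 tested identifiers of the list of myogenic transcription factors were higher in Contra and 2 lower, and in the list of satellite cell surface and signalling genes 14 of 34 were higher and 2 lower. The list of the myostatin pathway had 7 of 20 higher and 1 lower, that of commitment and fusion 5 of 25 higher and 0 lower, and that of fibre genes 3 of 29 higher and 0 lower. Mitotic genes were lower in 7 of 43 and higher in 1, and DNA replication genes lower in 3 of 20 and higher in 0.

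The cells were clustered on 2000 variable genes, 5 of them member identifiers. Member UMIs gathered in 1 of 33 clusters, a cluster of 419 cells or 1.24% of those kept. The genes that led it by fold were the fast myosin light chain MYLPF, then MYL1, TNNI2, CKM and ACTC1, and it is called the MYLPF-led cluster. It was given no cell type name, because it raised 15 of 16 connective tissue markers beside 9 of 11 muscle fibre markers and 7 of 10 muscle progenitor markers. Its cells were shallow, with a median of 3337 UMIs, and 173 of them came from Contra 3. Since the members took part in the clustering, their levels in this cluster are a description without a test.

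The cluster held 79.9% of the MYOG UMIs, 73.5% of DES, 65.9% of MYF5, 50.1% of CDH15, 49.0% of PAX7 and 24.4% of MSTN. PAX7 stood at 65.5 CPM there and at 0.463 CPM in all other clusters together. MYF5 stood at 63.2 CPM in the cluster and at 0.222 CPM elsewhere, and MYOG at 61.4 CPM in the cluster and 0.105 CPM elsewhere. Over the 6 libraries with at least 10 cells of the cluster, PAX7 ranged from 10.9 to 193 CPM, MYF5 from 10.9 to 105 CPM and MYOG from 4.32 to 104 CPM. The other clusters were pooled into classes, and libraries with at least 10 cells of a class were used. There PAX7, MYF5 and MYOG did not exceed 7.30, 7.38 and 2.67 CPM. Their measured ranges in the MYLPF-led cluster thus did not overlap with those in any other class. The lowest values in that cluster rest on few UMIs, however. The lowest MYOG value was that of Contra 2, where all kept cells together held 3 MYOG UMIs. Separation at the low end is thus not secure. Cluster by cluster the ranges of PAX7 and MYF5 did overlap: a connective tissue-like cluster of 1223 cells reached 15.6 CPM of PAX7 and 18.9 CPM of MYF5 in a library, and an unnamed cluster of 2435 cells 13.6 CPM of MYF5. MYOG reached at most 2.67 CPM in a library of another cluster.

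Below this cluster the order of the classes could not be read. The next class by summed CPM was ionocyte-like cells for PAX7, at 0.890 CPM, and mast cell or basophil-like cells for MYF5 and MYOG, at 1.15 and 1.48 CPM, with libraries at 0 CPM in each of them. Connective tissue-like cells, the most numerous class with 14589 cells, had 0.572 CPM of PAX7, 0.202 CPM of MYF5 and 0.0818 CPM of MYOG. CDH15, both identifiers together, ranged from 16.4 to 303 CPM over libraries in the MYLPF-led cluster, against at most 7.30 CPM in a library of another class. DES ranged from 2.73 to 80.2 CPM there, against at most 4.05 CPM elsewhere, and MSTN from 0 to 31.5 CPM, against at most 1.36 CPM. For CDH15 the measured range of the cluster thus lay apart from every pooled class, though its lowest value also rests on few UMIs. It did not lie apart from the connective tissue-like cluster of 1223 cells, which reached 23.6 CPM in a library. For DES and MSTN the ranges overlapped with those of other classes.

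Outside the cluster a member usually appeared as 1 UMI in a cell. Of the 33 PAX7 cells inside, 33.3% held 1 PAX7 UMI, against 93.1% of the 145 outside, and all 49 DES cells outside held 1 DES UMI. At least 3 UMIs of the gene were held outside by 9 PAX7, 6 MYF5, 1 MYOG, 10 CDH15, 0 DES and 4 MSTN cells. In droplet data, free RNA can give single UMIs, and its part here was not tested. As a level for comparison, 7.88% of the MYLPF-led cells held a PAX7 UMI at a median depth of 3337 UMIs, against 3 of 1222 erythroid-like cells, or 0.245%, at a median of 15558.5 UMIs. Epidermal-like cells, at a median of 4261 UMIs, held a PAX7 UMI in 0.318%, an MYF5 UMI in 0.0199% and an MYOG UMI in 0 of 10053 cells, which allows up to 0.0298% at a floor of 3 counts and up to 0.0367% as an exact 95% limit. The corresponding shares in the cluster were 12.2% for MYF5 and 9.79% for MYOG.

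**Figure D2:**
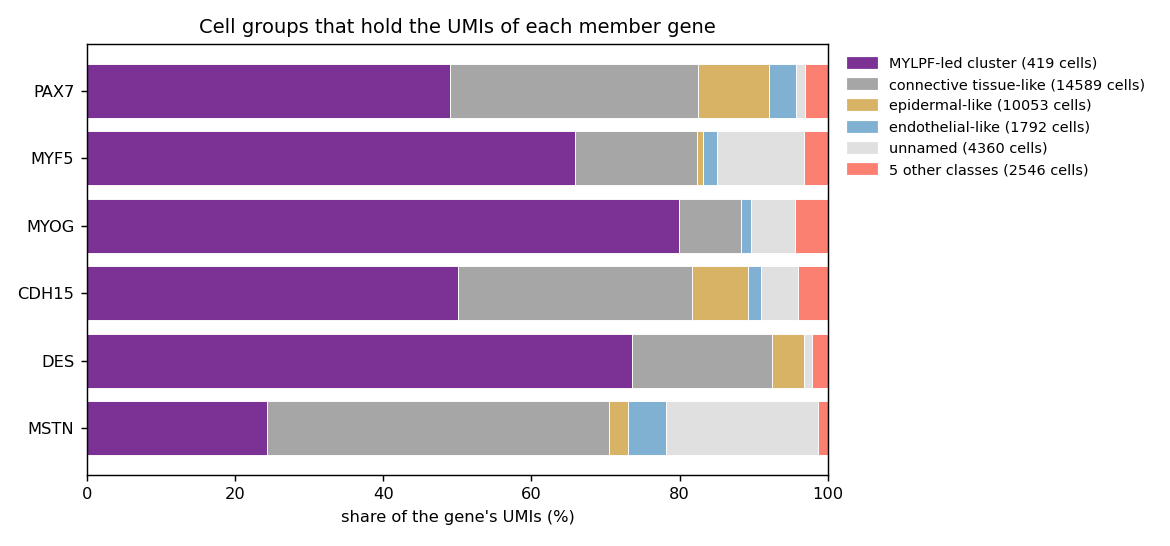
Share of the UMIs of each member gene (horizontal axis, percent) that lay in the MYLPF-led cluster and in the other cell classes. The MYLPF-led cluster, 1.24% of the cells, holds 79.9% of the MYOG UMIs but 24.4% of those of MSTN.

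Most kept cells, 33024 or 97.8%, carried no member, and 641 or 1.90% carried 1. Of the 641, 94.2% held 1 UMI of it in all, and their median depth of 14692 UMIs exceeded the 9044.5 UMIs of cells with none. Cells with 2, 3, 4 and 5 members numbered 46, 23, 24 and 1. Together these 94 cells were 0.278% of the kept cells, at a median of 10296.5 UMIs and a range from 1198 to 50180. Cells with 2 or more of the regulators PAX7, MYF5 and MYOG numbered 44, of which 37 lay in the MYLPF-led cluster. High doublet scores were found in 5 of the 94 and in 25 of the 419 cells of the MYLPF-led cluster, against 1352 of all 33759 kept cells. The doublet caller did not work here, so these counts do not tell how many of the 94 are doublets.

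The 94 cells showed 25 combinations. The most frequent was PAX7 with CDH15, in 16 cells, followed by CDH15 with DES and by PAX7 with MYF5 and CDH15, in 9 cells each, and by MYF5, MYOG, CDH15 and DES together, in 8 cells. Within the MYLPF-led cluster, 30 of the 33 PAX7 cells also carried CDH15, 20 carried MYF5 and 7 carried MYOG. MYOG cells there carried DES in 19 of 41 cases, against 4 of 33 PAX7 cells. All 7 MSTN cells of the cluster carried both MYF5 and CDH15. The highest counts in 1 cell were 39 UMIs for MYOG, 30 for CDH15, 22 for PAX7, 22 for MYF5, 10 for DES and 6 for MSTN.

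**Figure D3:**
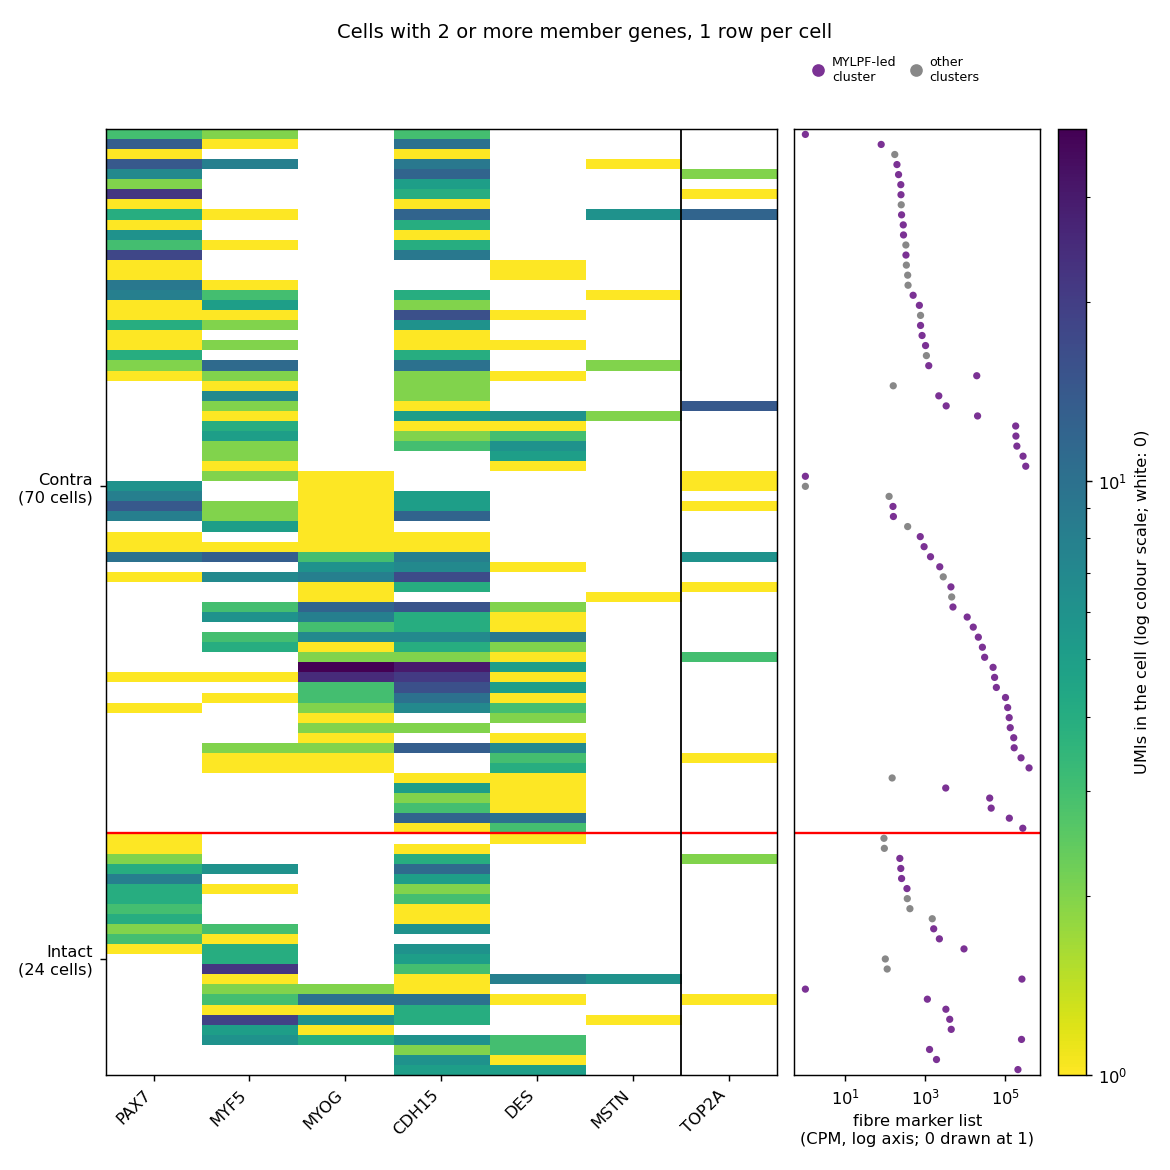
UMIs of the 6 member genes and of TOP2A (columns; log colour scale, white for 0) in each of the 94 cells with 2 or more members (rows), the 70 of Contra above the 24 of Intact. The side panel gives the summed CPM of the muscle fibre marker list in the same cells on a log axis; purple points are the 72 cells of the MYLPF-led cluster and grey points the other 22.

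Of the 94 cells, 72 or 76.6% lay in the MYLPF-led cluster, where they were 17.2% of the cells (exact Clopper-Pearson 95% interval 13.7 to 21.1%, which like all intervals here covers counting error only). The other 22 were spread over 15 connective tissue-like cells, 3 unnamed cells and 1 each of the epidermal-like, endothelial-like, mast cell or basophil-like and T cell-like classes. None was found among 1222 erythroid-like, 651 macrophage-like and 156 ionocyte-like cells, which allows shares of up to 0.245%, 0.461% and 1.92% at a floor of 3 counts, and up to 0.301%, 0.565% and 2.34% as exact 95% limits.

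Markers of other cell types moved with this split. The 19 identifiers of the muscle fibre list summed to 58465 CPM in the 72 cells of the cluster and to 689 CPM in the 22 cells outside it, against 125 CPM in all cells with none. Per cell, the median of this list was 3321 CPM in the 72 cells and 332.5 CPM in the 22 cells. Of the 72 cells, 24 lay under 1000 CPM and 30 reached at least 10000 CPM, so the sum does not describe the typical cell. Genes of this list led the cluster, so this contrast follows in part from the clustering. The 24 connective tissue identifiers summed to 10398 CPM in the 72 cells and 36240 CPM in the 22 cells. In cells with none they summed to 54592 CPM. The macrophage list stood at 76.4 CPM in the 72 and at 9574 CPM in the 22 cells, against 2573 CPM in cells with none. None of the 22 was macrophage-like, and 1 was mast cell or basophil-like. The mast cell or basophil list stood at 6.70 CPM in the 72 and at 1325 CPM in the 22 cells, against 217 CPM in cells with none. CTSS, of the macrophage list, was a leading gene of the mast cell or basophil-like cluster. The deepest of the 22 cells held 50180 UMIs, so these sums may rest on few cells. Over the 3 libraries of the next comparison, cells with 2 or more members ranged from 9158 to 28777 CPM for the connective tissue list, against 41279 to 70693 CPM in cells with none, and from 103 to 4920 CPM for the macrophage list, against 1757 to 3836 CPM. The part of these other cell types in the results below was not tested.

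The other genes of these cells were compared with those of cells with no member in the same library, in Contra 3, Contra 5 and Intact 3, the libraries with at least 10 such cells (42, 19 and 15 cells). Muscle fibre genes were higher, and so were most identifiers of the list of commitment and fusion. In edgeR's quasi-likelihood test with the library as a block, 2913 of 27807 genes or 10.5% had an adjusted p under 0.05, 667 higher (2.4%) and 2246 lower (8.08%). With 3 libraries, this test takes the variance of a gene largely from a value shared over genes. The very small p-values below thus do not measure the spread of a single gene over the 3 libraries. The filter on low counts could be passed through the cells with 2 or more members alone, where few UMIs make several CPM. NEB, MYMK, MYF6 and LBX1, among others, were tested only through this group, where they are high. Their folds and p-values, the list counts and the ranking by fold are thus in part set by the filter and are a description. Without the filter edgeR called 613 genes higher and 2258 lower. The median log2 fold change of all genes was -0.36, so the log2 values of single genes below are given relative to it. With relative log expression (RLE) size factors in edgeR the split was 812 higher and 1620 lower, and with library totals 1028 and 1146; all 667 higher genes and 1146 of the lower ones were called under all 3 scalings.

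Of 34 tested identifiers of the list of muscle fibre contractile genes, 31 were higher and 0 lower, with a median log2 fold change of 7.06, against -0.36 over all genes tested. NEB (AMEX60DD055859), nebulin of the thin filament, stood at 226, 88.4 and 126 CPM in cells with 2 or more members of Contra 3, Contra 5 and Intact 3, against 0.104, 0.129 and 0.0454 CPM in cells with none. Its log2 fold change relative to the median was 10.63 (SE 0.467, edgeR adjusted p = 3.11e-103). Titin, the giant spring protein, is split over several identifiers; TTN AMEX60DD055567 had 974, 234 and 417 CPM in the cells with 2 or more members, against 0.905, 0.723 and 0.757 CPM in those with none. The same 3 libraries ranked alike for both genes, with Contra 3 highest and Contra 5 lowest. Without Contra 3, the library with 44.7% of the 94 cells, 25 of 32 tested identifiers of the list were higher and 0 lower.

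The list of commitment and fusion genes had 16 of 24 tested identifiers higher and 3 lower, with a median of 4.03. It also holds contractile and receptor genes such as MYH3, ACTC1 and CHRNA1, so these counts are not of fusion genes alone. MYMK (AMEX60DD050745), myomaker, the membrane protein that myoblasts need to fuse, had 147, 56.9 and 154 CPM in cells with 2 or more members of Contra 3, Contra 5 and Intact 3, against 0.135, 0.232 and 0.151 CPM in cells with none (log2 fold change relative to the median 9.43, SE 0.467, edgeR adjusted p = 3.76e-80). MYH3 (AMEX60DD030555), the embryonic myosin heavy chain, had 3133, 316 and 3837 CPM in them, against 2.30, 1.32 and 1.18 CPM in cells with none, and Contra 5 was again the lowest of the 3 libraries. Of all 94 cells, 14 held a MYMK UMI and 22 an MYH3 UMI, so these sums do not describe the typical cell. The kelch proteins KLHL31 and KLHL41, found in skeletal muscle, rose by 8.76 and 7.48 on the log2 scale. Both identifiers of MYOF, myoferlin, a membrane protein also present outside muscle, fell. Their log2 fold changes relative to the median were -1.95 (AMEX60DD052624) and -2.05 (AMEX60DD052625). JAM2 (AMEX60DD047412) was the other identifier called lower, at -0.90 (edgeR adjusted p = 0.0320), but not under all 3 scalings.

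Of the list of myogenic transcription factors and cofactors, 10 of 17 tested identifiers were higher and 2 lower, and 10 and 1 under all 3 scalings. MYF6 (AMEX60DD007643), another myogenic helix-loop-helix factor, had 36.6, 19.0 and 11.4 CPM in cells with 2 or more members of Contra 3, Contra 5 and Intact 3, against 0.0832, 0.0517 and 0.0303 CPM in cells with none (log2 fold change relative to the median 8.58, SE 0.742, edgeR adjusted p = 4.91e-26). An MYF6 UMI was held by 16 of all 94 cells. LBX1 (AMEX60DD052913) marks limb muscle precursors in the embryo. It had 16 UMIs in cells with 2 or more members of these 3 libraries, against 2 UMIs in their cells with none. The ratio of CPM was 1887, with a counting interval from 444 to 16916. MEOX2 (AMEX60DD022442), a homeobox gene of limb mesenchyme and muscle precursors, fell by 1.53, to 181, 69.5 and 188 CPM, against 361, 355 and 440 CPM in cells with none. MEOX1 (AMEX60DD009987) was also called lower, but with RLE size factors in edgeR its adjusted p was 0.0610 and with library totals 0.151.

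The list of satellite cell surface and signalling genes divided: 7 of 31 tested identifiers were higher and 9 lower, with a median of -0.44, near that of all genes. Under all 3 scalings 7 were higher and 3 lower. MEGF10 (AMEX60DD042911), a receptor of satellite cells, had 214, 335 and 251 CPM in cells with 2 or more members of Contra 3, Contra 5 and Intact 3, against 2.36, 2.22 and 2.57 CPM in cells with none (log2 fold change relative to the median 6.66, SE 0.344, edgeR adjusted p = 2.39e-71). Unlike the fibre genes, MEGF10 was highest in Contra 5. FGFR4, a fibroblast growth factor receptor of myoblasts, rose by 7.03, ITGA7, the laminin receptor subunit of muscle, by 3.99, and the NOTCH target HEY1 by 3.28. FGFR1 fell by 1.23 and the heparan sulphate proteoglycan SDC4 by 1.29. BOC and CDON, co-receptors of hedgehog signalling and myoblast adhesion, were also called lower, but with library totals their edgeR adjusted p-values were 0.110 and 0.103.

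In the list of the myostatin pathway and myogenic inhibitors, 4 of 20 tested identifiers were lower and 0 higher, with 3 lower under all 3 scalings and 1 higher with library totals. FSTL3 (AMEX60DD013660), a secreted protein that binds myostatin and activins, had 3 UMIs in cells with 2 or more members, against 10511 UMIs in cells with none, a ratio of CPM of 0.0673 with a counting interval from 0.0139 to 0.197. ID3, an inhibitor of helix-loop-helix factors, fell by 1.78 and the repressor SNAI2 by 1.43. ID1 was called lower, but not with either other scaling.

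Mitotic genes were lower in 3 of 38 tested identifiers and higher in 0, near the shares over all genes of 8.08% and 2.4%, and 0 were called in either direction under all 3 scalings. DNA replication genes were lower in 5 of 19 and higher in 0, and 1 stayed called under all 3 scalings, the helicase subunit MCM3 (AMEX60DD032844). MCM3 had 13.5, 12.6 and 0 CPM in cells with 2 or more members of Contra 3, Contra 5 and Intact 3, against 39.0, 47.6 and 38.1 CPM in cells with none (log2 fold change relative to the median -2.11, SE 0.492, edgeR adjusted p = 1.62e-05).

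By the rule for the most alike genes, those with the largest fold among 473 that had at least 10 CPM and were higher in every library used, the 10 leading identifiers were NEB, LBX1, MYH3, TNNT3, VGLL2, 2 of TTN, MYMK, HES5 and ATP2A1. VGLL2 (AMEX60DD034172), a muscle cofactor of TEAD proteins, had 32.8, 44.2 and 34.3 CPM in cells with 2 or more members of Contra 3, Contra 5 and Intact 3, against 0.0520, 0.0258 and 0.0303 CPM in cells with none. HES5 (AMEX60DD051347), a NOTCH target, had 13.5, 107 and 34.3 CPM, against 0.0520, 0.0775 and 0.0151 CPM in cells with none, highest like MEGF10 in Contra 5. TNNT3, fast troponin T, and ATP2A1, the calcium pump of fast fibres, had their lowest value of the 3 libraries in Contra 5, at 6.32 and 12.6 CPM.

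Cells with 2 or more members were also set against cells of the MYLPF-led cluster with no member, in place of all cells with none. This comparison was chosen after seeing the data, in the 5 libraries with at least 5 cells with 2 or more members. Fewer fibre genes passed here, which does not show that they were alike. Pooled over all libraries, with 35 of the 72 cells from Contra 3, the fibre marker list summed to 58465 CPM in the 72 cluster cells with 2 or more members and to 12204 CPM in the 295 cluster cells with none, and MYLPF to 19412 and 3784 CPM. The median of the fibre list over the 72 cells was 3321 CPM, so its sum does not describe the typical cell. Markers of other cell types also differed: the connective tissue list stood at 10398 CPM in the 72 cells and 65296 CPM in the 295 cells. The mural list stood at 145 and 1016 CPM, the B cell list at 28.1 and 631 CPM and the erythroid list at 2243 and 78.7 CPM. These sums leave out the cells with 2 or more members outside the cluster, which the test took in. In all 22 such cells the connective tissue list stood at 36240 CPM and the macrophage list at 9574 CPM. The median depth was 10296.5 UMIs in the 72 cells and 2465 UMIs in the 295 cells. The part of these markers and of depth was not tested. In edgeR, 411 of 2606 tested genes or 15.8% were called, 134 higher (5.14%) and 277 lower (10.6%); with library totals the split turned to 443 higher and 140 lower. Of 14 tested fibre identifiers 1 was higher and 0 lower, with a median log2 fold change of -0.46 against 0.04 over all genes; the 1 was TTN AMEX60DD055568, with a log2 fold change of 3.01 and an edgeR adjusted p of 0.0370. Of 7 tested transcription factor identifiers 4 were higher and 0 lower.

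The list of satellite cell genes had 2 of 10 tested identifiers higher and 0 lower in the same comparison. MEGF10 stood at 281, 214, 335, 251 and 242 CPM in cells with 2 or more members of Contra 2, 3 and 5 and Intact 3 and 4, against 0, 10.3, 0, 6.82 and 0 CPM in cluster cells with none (log2 fold change 4.98, SE 0.551, edgeR adjusted p = 0.000548). FGFR4 stood at 87.2 CPM in cells with 2 or more members over these libraries. In cluster cells with none it stood at 4.62 CPM (log2 fold change 3.94). MEGF10 and FGFR4 passed the filter on low counts only through the cells with 2 or more members, so their tests are a description. KLHL41, far higher than in all cells with none, did not pass here, at 534 CPM in cells with 2 or more members and 145 CPM in cluster cells with none (log2 fold change -0.38, edgeR adjusted p = 0.828), and its sign turned in 3 of 9 alternatives, over a range from -1.48 to 0.59. KLHL41 was higher than in those cells in Contra 3 and Intact 3, and lower in Contra 2, Contra 5 and Intact 4. FGFR1, SDC4 and MEOX2, lower than in all cells with none, did not pass here. Their log2 fold changes were -0.95, -0.73 and -0.53 (edgeR adjusted p = 0.147, 0.201 and 0.476). MYOF AMEX60DD052624 was called lower here too, at -1.30 (edgeR adjusted p = 0.0496). MYH3 had 2496 CPM in cells with 2 or more members and 109 CPM in cluster cells with none, with a log2 fold change of 2.99 (SE 1.62) and an edgeR adjusted p of 0.205.

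Among the 94 cells, the genes differed by which member a cell carried. These subsets and the genes shown for them were picked with earlier results known, rest on cells of unequal libraries and are a description without a test. Cells with PAX7 and without MYOG numbered 37, with 9 in Contra 3; cells with MYOG numbered 36, with 21 in Contra 3; and 12 cells carried MYF5 without PAX7 and MYOG, with 8 in Contra 3. MYLPF summed to 138 CPM in the PAX7 cells, to 18430 CPM in the MYOG cells and to 29612 CPM in the MYF5 cells, against 37.6 CPM in cells with none. The median of the fibre marker list over cells was 337 CPM in the PAX7 cells, 4775 CPM in the MYOG cells and 102258 CPM in the MYF5 cells, and at least 10000 CPM was reached by 1 of 37, 17 of 36 and 7 of 12 cells.

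MYMK stood at 12.0 CPM in the PAX7 cells, at 255 CPM in the MYOG cells and at 0 CPM in the MYF5 cells, where 3 counts of the total would be 17.7 CPM. MYF6 had 0 UMIs in the PAX7 cells, against 47.9 CPM in the MYOG cells. Of the 36 MYOG cells, 11 held a MYMK UMI and 11 an MYF6 UMI. MEGF10 summed to 321 CPM in the PAX7 cells, 310 CPM in the MYOG cells and 17.7 CPM in the MYF5 cells, but 25 of 37 PAX7 cells held a MEGF10 UMI, against 14 of 36 MYOG cells. ITGA7 summed to 165, 151 and 11.8 CPM, with a UMI in 20 of 37 PAX7 cells and 21 of 36 MYOG cells. The collagen COL1A2 summed to 1526 CPM in the PAX7 cells, 817 CPM in the MYOG cells and 5831 CPM in the MYF5 cells. A COL1A2 UMI was held by 35 of 37, 31 of 36 and 10 of 12 of these cells. The median per cell was 3, 4 and 4.5 UMIs, so the sums do not describe the typical cell.

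**Figure D4:**
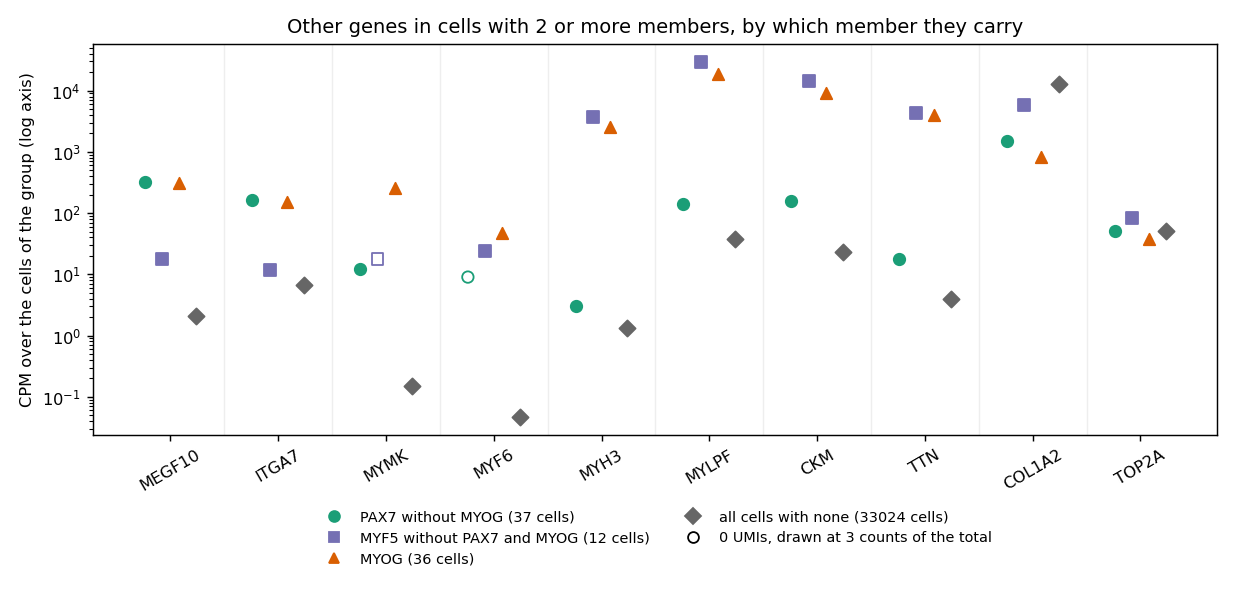
CPM (vertical log axis) of 10 genes outside the member list, summed over the cells with 2 or more members that carry PAX7 without MYOG (37 cells), MYF5 without either (12 cells) or MYOG (36 cells), and over the cells with none. Open symbols mark 0 UMIs and are drawn at 3 counts of the total. MYLPF, CKM and TTN are low in the PAX7 cells, while the summed levels of MEGF10 (321 and 310 CPM) and ITGA7 (165 and 151 CPM) in the PAX7 and MYOG cells lie close together.

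TOP2A is a topoisomerase whose RNA peaks late in the cell cycle. To compare cells of unequal depth, 2000 UMIs were drawn from each cell, which left out 5 of the 94 cells and 3227 kept cells in all. At this depth 6 of 89 cells with 2 or more members, or 6.74% (95% interval 2.51 to 14.1%), held a TOP2A UMI, against 1934 of 29820 cells with none, or 6.49%. Before drawing, 13 of the 94 cells held one. All 6 lay in the MYLPF-led cluster, where they were 6 of 68 such cells, against 4 of 160 cluster cells with none (2.5%) and 0 of 21 cells with 2 or more members in other clusters. By subset, TOP2A was found in 3 of 34 PAX7 cells without MYOG, in 2 of 34 MYOG cells and in 1 of 12 MYF5 cells without either, shares whose intervals overlap.

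By library, TOP2A was found in 7.32% of cells with 2 or more members, against 4.54% of cells with none in Contra 3, in 11.8% against 8.58% in Contra 5, and in 0 of 14 against 5.55% in Intact 3. The mean difference of 0.139 percentage points over these 3 libraries did not exceed their spread (2-sided exact sign-flip permutation test, p = 1; the smallest p that 3 libraries allow is 0.25), and its sign turned without Contra 3 or Contra 5, at -1.18 and -1.39. The share in cells with 2 or more members was 9.54 points higher in the 2 Contra libraries than in the 1 Intact library, with an exact permutation p of 0.333, the smallest that design allows. With the libraries of at least 5 such cells, of which Intact 4 had TOP2A in 1 of 4 cells, that difference was -6.14 points. As a level, TOP2A stood at 48.2, 114 and 5.71 CPM in cells with 2 or more members of Contra 3, Contra 5 and Intact 3, against 44.3, 64.6 and 38.7 CPM in cells with none (edgeR log2 fold change -0.45 without adjustment for the median, SE 0.349, adjusted p = 0.594). The levels in cells with 2 or more members rest on 44 UMIs, of which 1 cell of Contra 3 held 14 and 1 cell of Contra 5 held 12. In Intact 3 the level was 1 UMI in 1 cell, under a floor of 3 counts. The log2 fold change was 0.03 with library totals. With all libraries of at least 2 such cells it was -1.24, with an edgeR adjusted p of 0.0212.

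Cells with 2 or more members numbered 3, 6, 42 and 19 in Contra 1, 2, 3 and 5, against 2, 15, 5 and 2 in Intact 1, 3, 4 and 5. As shares of kept cells these are 0.0645, 0.0982, 0.573 and 0.399% in Contra, against 0.125, 0.362, 0.157 and 0.101% in Intact. Since such shares depend on depth, they were compared after drawing 2000 UMIs per cell. The shares were then 0.0462, 0.107, 0.261 and 0.228% in Contra 1, 2, 3 and 5 (2, 6, 18 and 9 cells), against 0.0690, 0.129, 0.107 and 0.0621% in Intact 1, 3, 4 and 5 (1, 5, 3 and 1 cells). Contra 3 and Contra 5 lay above all Intact libraries and Contra 1 below all of them.

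The mean share was 0.161 ± 0.101% in Contra and 0.0918 ± 0.0316% in Intact libraries (SD, n = 4 each), a difference of 0.0687 points that did not exceed the spread between libraries (2-sided exact permutation test over 70 assignments, p = 0.343). Without drawing, the means were 0.284 ± 0.245% in Contra and 0.186 ± 0.120% in Intact libraries (exact permutation p = 0.600). After drawing, the difference for cells with 3 or more members had the opposite sign to that for 2 or more, at -0.00765 points. For 2 or more of the regulators the drawn shares were 0.0180 ± 0.0129% in Contra and 0.0373 ± 0.0271% in Intact libraries, 4 cells in each group (exact permutation p = 0.257), while without drawing there were 33 such cells in Contra and 11 in Intact.

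Within the cells with 2 or more members, Contra and Intact were compared gene by gene in the 5 libraries with at least 5 such cells, a minimum chosen after seeing the data because 1 Intact library alone had 10. Of 3646 tested genes, 0 or 0% passed in edgeR, 81 had an unadjusted p under 0.05, and DESeq2 called 0. None of the identifiers of the 7 gene lists passed. Without the filter on low counts edgeR called 16 genes, 15 higher in Contra and 1 lower.

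**Figure D5:**
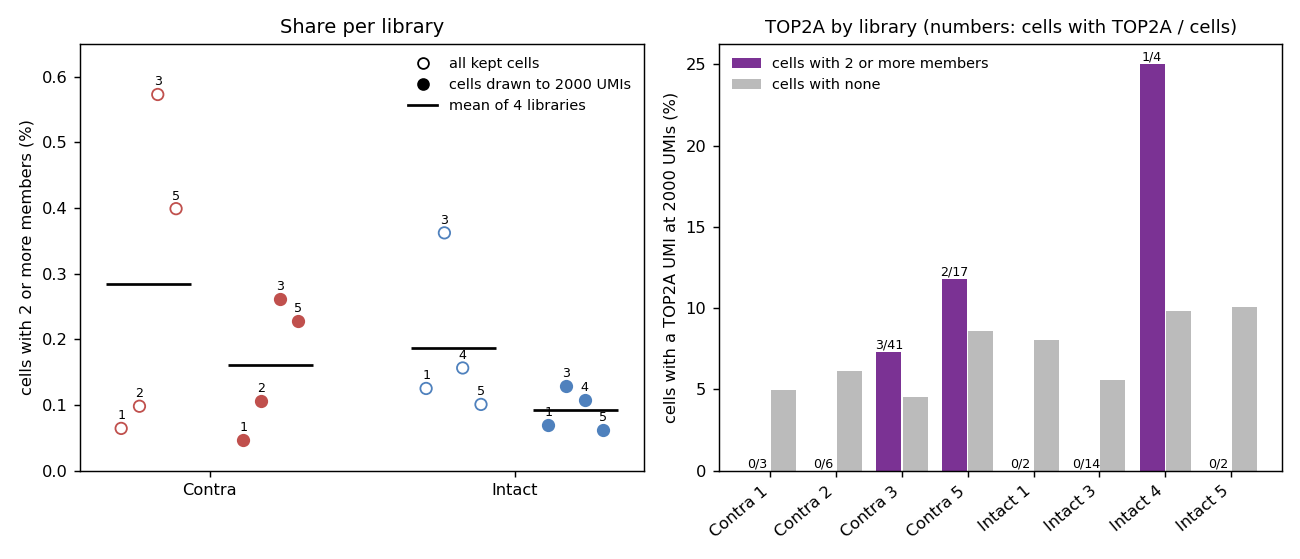
Left, share of cells with 2 or more members (vertical axis, percent) in each Contra and Intact library, over all kept cells (open points) and after drawing 2000 UMIs per cell (filled points), with the mean of 4 libraries as a line. Right, share of cells with a TOP2A UMI after drawing (percent) in cells with 2 or more members (purple) and with none (grey), by library; fractions give the cells with TOP2A over all drawn cells with 2 or more members, and only 3 libraries have more than 6 of them.

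Over the 33 clusters, the summed CPM of PAX7, MYF5 and MYOG was 190 in the MYLPF-led cluster and 4.95 in the next highest, a connective tissue-like cluster of 1223 cells. Among 21906 genes with at least 50 UMIs, the highest Spearman correlations with this sum were 0.747 for LYVE1 and 0.662 for FLT4, both genes of lymphatic endothelium, then 0.630 for CRIP2 and 0.612 for SMYD2. The points are clusters that share libraries and differ in depth, and most regulator sums rest on few UMIs: 0.0928% of the LYVE1 UMIs lay in the MYLPF-led cluster, against 83.7% of those of TTN AMEX60DD055568, whose correlation was 0.584.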

How the data were processed

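Single-cell RNA libraries of sorted limb cells were read as the deposited matrix of UMI counts per gene and cell, raw whole numbers with no normalization by the authors, as its values show. The submitters' processing notes name kallisto 0.48.0 and Seurat 4.2.0 without saying what each did; the aligner, genome build and use of strand are otherwise not given in the sources used here. Barcode prefixes assigned cells to libraries. Gene names were those of the deposited gene list, no coordinates were used, and no column of per-sample values was left unused.

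Of 34149 deposited cells, 33759 were kept: 289 had fewer than 500 genes, and Scrublet, as built into scanpy 1.11.5, called 101 or 0.298% as doublets. A caller that marks so few has not worked; dropping the 1352 top-scoring cells, at 0.8% per 1000 cells, was tried instead. Cells were scaled to 10000 UMIs, and 2000 variable genes were reduced to 30 principal components for Leiden clustering with 20 neighbours at resolution 1 (leidenalg 0.10.2). A cluster took a class name where at least 3 markers reached 20 CPM and 4 times the lower quartile over clusters, unless an unrelated list was raised too. No pair of libraries was a copy of another: the chi-square of their counts divided by its degrees of freedom was at least 11.7.

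UMI counts were summed per library, or per library and cell group, and tested with edgeR 4.0.16 (quasi-likelihood test, filterByExpr, TMM, Benjamini-Hochberg over all genes tested, threshold 0.05) in R 4.3.3. Shares were compared by exact permutation over libraries (scipy 1.17.1) after drawing 2000 UMIs per cell. The tests were checked on simulated counts. Alternatives were DESeq2 1.42.0, RLE factors, library totals, no filter, 1000 and 4000 UMIs drawn, other cell filters, and each library left out. Libraries were the replicates, with no batch named by the labels. The comparison of Contra with Intact within cells with 2 or more members was planned with at least 10 such cells per library and run with at least 5. Named genes were the members, TOP2A, up to 4 identifiers per list and direction with the smallest p, and the genes most alike by fold or over clusters; list genes that did not pass are given as counts, and some named by this rule are not reported here. The members and lists were chosen with earlier results of these data known.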

Additional observations from a re-analysis of the deposited data

Results flagged for a closer look

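Of 18 groups of 4 libraries examined for a library apart from the rest, 2 were picked out; chance picks out about 1 group in 20. MSTN stood at 0.276 CPM in Intact 3 and at 0 CPM in the other 3 Intact libraries. The 4 Contra libraries lay between 0.207 and 0.252 CPM. The gap of Intact 3 to its neighbour was thus the whole range of its group. With 3 values tied at 0 this holds for any Intact 3 value above 0, so the rate of 1 in 20 does not apply to MSTN. TOP2A stood at 39.0 CPM over all kept cells of Intact 3, while the other Intact libraries ranged from 60.2 to 63.9 CPM and the Contra libraries from 45.8 to 64.1 CPM; the gap was 0.852 of the range, above the critical value of Dixon's test for 4 values. Intact 3 had the highest median depth of all libraries, 15398.5 UMIs per cell. The part of depth in these 2 values was not tested.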

How the results depend on the processing

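Directions changed in these settings, none of them with a result past the threshold in the main or the changed setting: the share of cells with 2 or more members at 3 or more members (-0.00765 points), that of 2 or more regulators without drawing (0.0471), the TOP2A difference between cells with 2 or more members and none with libraries of at least 2 such cells (-1.69), and its Contra minus Intact difference with libraries of at least 5 (-6.14) and 2 such cells (-1.48). For single genes these were MYF5 over all cells without Contra 1 (0.0289) and without Intact 3 (0.109), in a range of -1.03 to 0.109 with 1 library left out; TOP2A over all cells without Intact 1 (0.0695), in a range of -0.327 to 0.0695; KLHL41 against MYLPF-led cells with none in 3 of 9 settings (-1.48 to 0.594); and TOP2A in cells with 2 or more members with library totals (0.0295) and against connective tissue-like cells with none (0.0676). Leaving out 1 library gave -1.39 to 2.98 points for TOP2A and 7.32 to 11.8 points for its Contra minus Intact difference, 0.0351 to 0.107 points for cells with 2 or more members and -0.0318 to -0.0111 points for those with 2 or more regulators.

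Counts of genes past the threshold moved as follows. For Contra against Intact over all cells, 0 became 13 with DESeq2 and 0 to 5673 with 1 library left out. For cells with 2 or more members against none, 2913 became 1472 with DESeq2, 1532 with 2 or more regulators, 982 with 2000 UMIs drawn, and 1413 (without Contra 3) to 2528 with 1 library left out. Against the MYLPF-led cells with none, 411 became 833 with DESeq2, 806 without the filter, and 214 (without Contra 3 or without Intact 3) to 443. Contra against Intact within these cells, 0 became 16 without the filter, 15 higher and 1 lower, and stayed at 0 with each library left out. Except for construction (fewer libraries or UMIs), the cause was not tested. For genes named in cells with 2 or more members against none, 408 values under alternatives kept direction and side of the threshold, 90 kept only the direction, and 1, TOP2A with libraries of at least 2 such cells, passed it.

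Numbers 1, 3 and 5 occur in both groups, with correlations of the deviations of same-numbered libraries of -0.159, 0.619 and 0.261. The labels do not say whether a number pairs libraries, and correlations of mixed sign cannot decide it. With the replicate block the share of cells with 2 or more members differed by 0.0920 points, that of 2 or more regulators by -0.0197 and the TOP2A share by 6.36, none past the threshold, and 0 genes were called over all cells. No paired analysis was possible within the cells with 2 or more members gene by gene because the groups share 1 number there. Depth limits every result here: member identifiers rest on 78 to 662 UMIs each, the second CDH15 identifier on 148.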
